A study of Danio rerio with 18 samples.

Results

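Ubiquitin conjugating enzymes and ubiquitin ligases were followed as carriers of 5-methylcytosine (m5C) in zebrafish mRNA. Genes were taken by their symbol in the site lists, ignoring case, where it started with ube2, ube3, ube4, ubr, fbxo, fbxl, fbxw, hectd, herc, nedd4 or klhl, or with cul, rnf or trim followed by a digit. This gave 122 of 5129 genes with a listed site (2.38%) and 239 of 9047 distinct sites (2.64%). Polyadenylated RNA was taken from pools of wild-type AB fish at 9 stages counted in hours post fertilisation (hpf), in the egg and early embryo (0, 2 and 4 hpf), in the gastrula (6, 8 and 10 hpf) and later (16, 24 and 48 hpf), with no treatment or mutant at any stage. After bisulfite treatment cytosine reads as T unless it is methylated, so the m5C level of a site is the share of C among its C and T reads, and the sum of these reads is its coverage. Each stage had 2 libraries, 18 in all, and each deposited list joined both, so no value has a replicate error. The intervals given are 95% intervals for counting error or for the spread over sites, and reads copied from the same molecule by PCR were counted separately. A list holds only sites with a level of at least 10% and a coverage of at least 20 reads, so absence from a list may mean low coverage as well as a low level. Whole fish were pooled, so methylation in fewer cells and in fewer copies per cell cannot be told apart.

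Ubiquitin is passed from an activating enzyme (E1) to a conjugating enzyme (E2) and then, with the help of a ligase (E3), to a protein that is thereby often marked for the proteasome. Ligases of the HECT class carry the ubiquitin themselves, whereas RING, TRIM and U-box ligases bring the E2 to its target, and cullins are scaffolds that join a RING protein to substrate receptors such as F-box or kelch-like proteins. The egg is loaded with maternal mRNA, including mRNA for many of these enzymes, and the embryo replaces it by its own transcripts during the maternal-to-zygotic transition.

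The symbols are those of the lists, and some are out of date. Of the 122 gene IDs, 101 (82.8%) were in a table of current names, 20 had another symbol there, and 4 genes with 16 sites had a current name outside the rule. These were fbxo10 (now ECPAS, a proteasome adaptor and not an F-box protein), fbxo18 (now FBH1, a DNA helicase that carries an F-box in mammals), TRIM47 (now ftr86, of the fish TRIM family) and FBXW12 (now under a clone name). They were kept because the rule reads the deposited symbol, and the counts of the families they fall in are also given without them. A separate gene listed as FBXO10 was not among them.

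Listed sites were mostly those of the egg and the early embryo. At 0, 2, 4, 6, 8 and 10 hpf the genes held 125, 163, 169, 77, 24 and 2 sites, in 75, 93, 97, 48, 21 and 2 genes. None of the 44 sites of the 16, 24 and 48 hpf lists lay in these genes. As a share of each list the sites made up 2.66%, 2.63%, 2.87%, 2.87%, 1.92% and 0.467% at 0 to 10 hpf. Up to 6 hpf the shares lay between 2.63 and 2.87%, so the number of sites moved with that of the whole list. The intervals were 2.30 to 3.57% at 6 hpf, 1.29 to 2.84% at 8 hpf and 0.13 to 1.69% at 10 hpf. That of 8 hpf overlaps that of 6 hpf but does not hold the 2.87% of 4 and 6 hpf. Among the genes 66 (54.1%) had a single site, against 58.6% of all genes with sites. Among the genes with many sites were herc2 and TRIM47 with 9 each.

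By family, F-box genes had 52 sites in 31 genes, RING genes 49 in 26, TRIM genes 39 in 17, HECT genes 37 in 10, E2 genes 21 in 17, kelch-like genes 17 in 10, UBR genes 15 in 5, cullins 6 in 5 and the U-box gene ube4b 3. Without the renamed genes, F-box genes had 45 sites in 28 genes and TRIM genes 30 in 16. Every family was listed at 2, 4, 6 and 8 hpf, and each but the U-box gene also at 0 hpf. At 10 hpf only an F-box and a TRIM site were left.

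**Figure D1:**
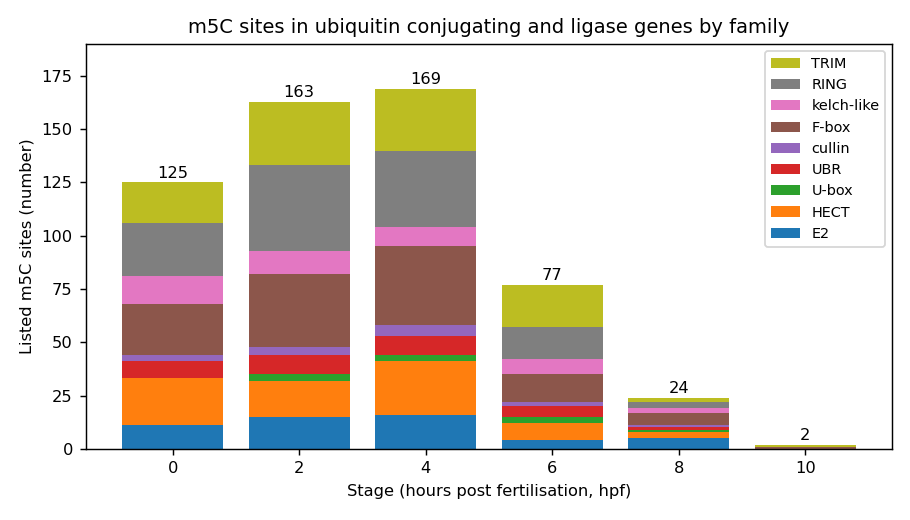
Number of listed m5C sites in ubiquitin conjugating and ligase genes at each stage (hpf), stacked by gene family. The bars reach 125, 163, 169, 77, 24 and 2 sites, and all families are smaller at 6 than at 4 hpf except the U-box gene, which held 3 sites at both.

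The median level of the listed sites changed little while their number did. Each list holds only sites of at least 10%, so these medians are over different sites and do not follow the same sites. Medians of 19.1, 20.0, 18.9, 18.9 and 15.4% were found at 0, 2, 4, 6 and 8 hpf, with intervals of 17.3 to 22.5%, 18.5 to 22.9%, 16.7 to 22%, 15.8 to 21.1% and 12.5 to 19.0%. Over all genes the medians were 19.4, 19.3, 19.2, 18.9 and 16.5% at these stages, inside the intervals of the ubiquitin genes each time. The sites at 10 hpf had 14.6 and 15.9%. Levels of 50% or more were seen at 17, 18, 19, 6, 1 and 0 sites at 0 to 10 hpf. Median coverage was 114, 178, 178, 125, 104.5 and 70 reads, against 127, 148, 167, 133, 97 and 98 reads for all sites.

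**Figure D2:**
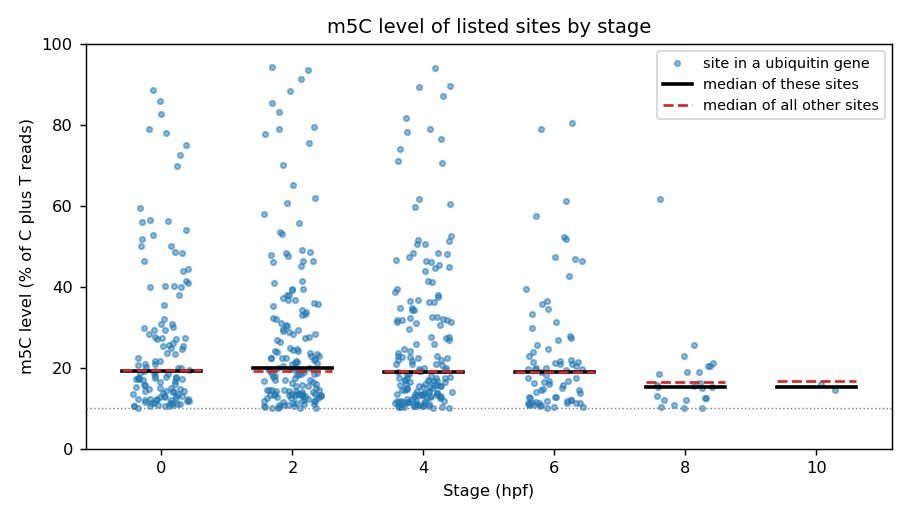
m5C level in percent of C plus T reads for each listed site in ubiquitin conjugating and ligase genes by stage, 1 point per site. Black lines are their medians (19.1, 20.0, 18.9, 18.9 and 15.4% at 0 to 8 hpf), red dashed lines the medians of all other listed sites, and the dotted line is the 10% limit of the lists; few points lie above 50% after 4 hpf.

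At the highest end at 4 hpf, with at least 100 reads, stood trim16 (94.0%), fbxo10 (89.6%), ube4b (87.2%), fbxo18 (81.6%) and FBXL21 (79.1%). Each is a single cytosine, and in trim16, fbxo10, fbxo18 and ube4b the other sites listed at 4 hpf were lower. In fbxo18 the other site had 14.2% of 1608 reads at 4 hpf, and in ube4b the others had 19.7% of 402 and 29.6% of 186 reads. In fbxo10 the others, on chromosome 1, had 61.7% of 47 reads at 18326054 and 13.3% of 120 reads at 18330829 at 4 hpf. In trim16 the others had 24.3% of 268 and 16.8% of 238 reads at 4 hpf.

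Sites carried over from list to list until 4 hpf and then left it. Of the 125 sites at 0 hpf, 92 (73.6%) were listed again at 2 hpf, and of the 163 at 2 hpf, 127 (77.9%) again at 4 hpf, with 71.8% and 73.9% over all genes. Of the 169 sites at 4 hpf, 69 (40.8%, interval 33.7 to 48.4%) were listed again at 6 hpf, against 40.2% over all genes. Of the 77 at 6 hpf, 14 (18.2%, 11.2 to 28.2%) were listed at 8 hpf, against 28.1% (26.4 to 29.8%) over all genes. Of the 24 at 8 hpf, 1 (4.17%, 0.74 to 20.2%) was listed at 10 hpf, against 26.7% (24.3 to 29.2%). The last share lies below that of all genes outside both intervals, and it rests on 24 sites. Few sites were new at 6 hpf, where 89.6% (80.8 to 94.6%) of those listed had been listed at 4 hpf, against 88.2% over all genes.

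Sites listed at both stages of a pair were compared by a two-sided Fisher's exact test of C against T reads, adjusted by the method of Benjamini and Hochberg over all such sites of all genes, at a threshold of 0.05. At 6 against 4 hpf, 27 of the 69 shared sites were lower and 0 higher (39.1% lower, against 34.1% lower and 1.01% higher over all genes). The median change was -5.26 points (interval -10.5 to -2.49), against -4.99 points over all genes. A lower value at 6 hpf was found at 52 of the 69 sites, and at 1786 of 2367 over all genes. The share of falls in the ubiquitin genes was thus close to that of all genes. The median level of the shared sites was 19.7% at 6 hpf, against 30.6% at 4 hpf. With a test that allows reads of a stage to vary together (a beta-binomial test), 18 sites were lower and 0 higher, and over all genes 24.9% were lower and 0.169% higher.

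Over all genes 579 of 754 shared sites had a lower value at 8 than at 6 hpf, and in the ubiquitin genes all 14 had. By Fisher's exact test 9 of them were lower and 0 higher (64.3% lower, against 46.2% lower and 3.58% higher over all genes), and 8 were lower by the beta-binomial test (40.6% lower and 2.52% higher over all genes). The median change was -19.0 points (-32.8 to -3.44), against -8.99 points over all genes. The median level of these sites was 18.8% at 8 hpf, against 38.0% at 6 hpf. With 14 sites, the interval of the median change holds the value of all genes. A fall that took a site under 10% removed it from the later list, so these counts hold only the sites that stayed above the limit.

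**Figure D3:**
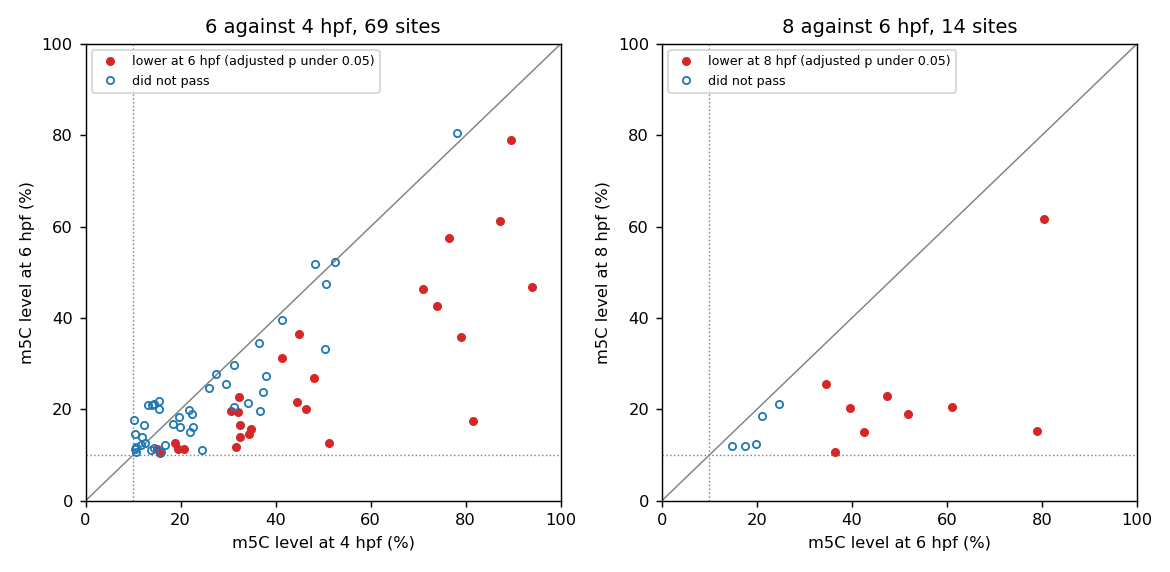
m5C level of each site in ubiquitin conjugating and ligase genes listed at both stages, the later stage on the y axis and the earlier on the x axis (both in percent), for 6 against 4 hpf (69 sites) and 8 against 6 hpf (14 sites). Filled red points are the 27 and 9 sites that were lower by Fisher's exact test, open blue points did not pass, the solid line marks equal levels and dotted lines the 10% limit of the lists; the red points lie far under the line at high earlier levels.

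Among the E2 enzymes, 4 of 16 sites of 4 hpf were listed at 6 hpf and 2 of these were lower. Over all genes 40.2% were listed again and 34.1% of the shared sites were lower. In ube2o, a large enzyme that acts as E2 and E3 at once, the site on chromosome 6 had 20.0% of 45 reads at 6 hpf, against 46.5% of 142 reads at 4 hpf (exact test, adjusted p = 0.00611). In ube2g1b the level was 11.4% of 1309 reads at 6 hpf, against 15.1% of 1191 reads at 4 hpf (exact test, adjusted p = 0.0206, and 0.356 with the beta-binomial test). These were a large change on few reads and a small change on many.

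The gene ube2i2 (now ube2ib) codes for the E2 of the ubiquitin-like protein SUMO, and had some of the best covered sites. Its site on chromosome 24 at 38780067 had 20.6% of 7734, 21.5% of 6521 and 16.6% of 3057 reads at 0, 2 and 4 hpf and was not listed later. In ube2ka, an E2 that builds ubiquitin chains, the sites on chromosome 14 at 659852 and 659868 lie close together. The site at 659868 had 51.8% of 139, 48.3% of 58 and 45.5% of 44 reads at 0, 2 and 4 hpf, was missing at 6 hpf and had 10.1% of 69 reads at 8 hpf. Its neighbour at 659852 had 14.9, 19.6 and 15.0% at 0, 2 and 4 hpf and 13.0% at 8 hpf, so the pair differed by far more in the egg than at 8 hpf.

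Of the HECT genes 7 sites were listed at both 4 and 6 hpf, and 2 of them were lower at 6 hpf. The share over all genes was 34.1%. In nedd4l, a ligase known to regulate ion channels in mammals, 1 site had 17.6% of 125 reads at 6 hpf, against 10.3% of 360 reads at 4 hpf, and did not pass (exact test, adjusted p = 0.0973). In HERC4 a site had 19.6% of 51 reads at 6 hpf, against 36.7% of 49 reads at 4 hpf, and did not pass either (exact test, adjusted p = 0.169).

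In herc2, a giant ligase of the DNA damage response, the 9 sites lay between 37727770 and 37793261 on chromosome 6. Most were listed at 0 hpf and only the site at 37788871 remained at 6 hpf. It had 16.4% of 195, 13.1% of 99, 21.1% of 95 and 18.5% of 54 reads at 0, 4, 6 and 8 hpf. At 6 against 4 hpf it differed by 7.92 points (interval -2.74 to 18.6, exact test, adjusted p = 0.339).

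The U-box gene ube4b, which lengthens ubiquitin chains, held all its 3 sites from 2 to 6 hpf. The site on chromosome 23 at 29755257 had 85.3% of 150, 87.2% of 187, 61.2% of 103 and 20.4% of 323 reads at 2, 4, 6 and 8 hpf. It was lower at 6 than at 4 hpf (exact test, adjusted p = 4.19e-06) and lower at 8 than at 6 hpf (2.93e-13). At 8 hpf it had 66 C reads, against 63 at 6 hpf, as raw counts not scaled for depth. Over all shared sites the median ratio of reads at 8 hpf to reads at 6 hpf was 0.816. The ratio of this site was 3.84 times that median. The other 2 sites had 18.3% and 25.6% at 6 hpf, against 19.7% and 29.6% at 4 hpf, and did not pass (exact test, adjusted p = 0.94 and 0.753).

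UBR genes code for ligases that read the N-terminal residue of their targets or share the domain that does so. At 6 against 4 hpf 3 of 4 shared UBR sites were lower, against 34.1% of shared sites over all genes. In ubr7 the level was 26.9% of 67 reads at 6 hpf, against 48.1% of 258 reads at 4 hpf (exact test, adjusted p = 0.00805). In ubr3 the level held until 6 hpf, with 40.0, 40.9, 41.3 and 39.5% at 0, 2, 4 and 6 hpf on 225 to 635 reads, and was 20.4% of 167 reads at 8 hpf (exact test, adjusted p = 5.3e-05 for 8 against 6 hpf). In ubr2 the site at 2967323 on chromosome 13 had 54.0% of 187 reads at 0 hpf and appeared in no other list.

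The cullins showed both courses. In CUL3, the scaffold for kelch-like receptors, the site on chromosome 15 at 1773072 had 46.4% of 239, 44.6% of 379 and 21.6% of 232 reads at 2, 4 and 6 hpf (exact test, adjusted p = 3.91e-08 for 6 against 4 hpf). In cul1b, of the scaffold for F-box receptors, the only site had 50, 49.1, 48.3, 51.8 and 19.0% at 0, 2, 4, 6 and 8 hpf, with 34, 218, 505, 191 and 126 reads. At 6 against 4 hpf it differed by 3.52 points (interval -4.77 to 11.7). At 8 against 6 hpf it differed by -32.8 points (-41.9 to -22.3, exact test, adjusted p = 1.38e-08). The fall of the cul1b site was thus seen a stage later than that of CUL3.

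F-box proteins bind the substrates of cullin ligases. Of 11 sites shared by 4 and 6 hpf, 5 were lower, and these included the largest fall among the 69 sites. Without the renamed fbxo10 and fbxo18, 3 of 9 were lower. Over all genes 34.1% of shared sites were lower in this step. The fbxo18 site on chromosome 4 at 8929244 had 79.1% of 43, 79.4% of 437, 81.6% of 979 and 17.4% of 730 reads at 0, 2, 4 and 6 hpf (difference -64.2 points, interval -67.7 to -60.3, exact test, adjusted p = 5.89e-162). FBXL21 (now fbxl3l) had 83.1% of 77, 79.1% of 129 and 35.8% of 67 reads at 2, 4 and 6 hpf (exact test, adjusted p = 2.62e-08). The others were FBXO46 with 15.7% at 6 hpf, against 34.8% at 4 hpf, fbxo10 with 79.0%, against 89.6%, and fbxw8 with 36.5%, against 45.0% (the last had an adjusted p of 0.0238, and of 0.179 with the beta-binomial test).

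At 8 against 6 hpf, 3 of 4 shared sites listed under F-box symbols were lower. Without fbxo10, which is not an F-box gene by its current name, 2 of 3 were. Over all genes 46.2% of shared sites were lower in this step. The fbxo10 site on chromosome 1 at 18312072 had 85.9, 93.5, 89.6, 79.0 and 15.2% at 0, 2, 4, 6 and 8 hpf, on 85, 403, 461, 119 and 112 reads (exact test, adjusted p = 1.77e-22 for 8 against 6 hpf). In fbxw8, a receptor of cullin ligases, the site on chromosome 5 had 10.7% of 121 reads at 8 hpf, against 36.5% of 491 reads at 6 hpf (exact test, adjusted p = 3.43e-08). In fbxo7, which is mutated in a form of human parkinsonism, the site at 401906 on chromosome 4 had 12.5% of 104 reads at 8 hpf, against 19.8% of 111 reads at 6 hpf, and did not pass (exact test, adjusted p = 0.306).

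The longest course was that of fbxo45, an F-box protein known from synapses in mammals, whose site on chromosome 24 at 29349304 was the only one in 6 lists. It had 75.1% of 398, 77.7% of 669, 78.2% of 564, 80.6% of 72, 61.7% of 81 and 14.6% of 96 reads at 0, 2, 4, 6, 8 and 10 hpf. It differed by 2.36 points at 6 against 4 hpf (interval -8.7 to 10.7). It was lower at 8 than at 6 hpf (exact test, adjusted p = 0.0281) and lower at 10 than at 8 hpf (exact test, adjusted p = 6.52e-10), a step in which 28.7% of shared sites of all genes were lower and 3.89% higher, or 22.2% and 1.8% by the beta-binomial test. Its coverage over the last 3 stages was 72, 81 and 96 reads, not scaled for depth. Reads at 8 hpf over those at 6 hpf were 1.38 times the median ratio of all shared sites.

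A site that kept its level while its reads declined was found in fbxo43, which codes for Emi2, the inhibitor that holds the vertebrate egg in meiosis until fertilisation. The site on chromosome 16 at 58180798 had 27.1% of 15141, 27.7% of 7692, 27.4% of 2527 and 27.7% of 537 reads at 0, 2, 4 and 6 hpf. The difference at 6 against 4 hpf was 0.36 points (interval -3.67 to 4.65). Reads at 6 hpf over those at 4 hpf were 0.436 times the median ratio of all shared sites. Its other site, at 58186627, had 13.0, 13.4, 10.7 and 11.7% at these stages on 16006, 7916, 2611 and 358 reads. Neither site was listed at 8 hpf.

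Kelch-like proteins are receptors of CUL3 ligases. In klhl12 the site at 29214797 on chromosome 8 had 41.0, 30.6, 30.6 and 19.7% at 0, 2, 4 and 6 hpf (exact test, adjusted p = 0.00394 for 6 against 4 hpf, and 0.0543 with the beta-binomial test). The klhl20 site had 11.4% of 755 reads at 6 hpf, against 19.4% of 2047 reads at 4 hpf (exact test, adjusted p = 2.29e-06). In klhl8 the neighbouring sites on chromosome 21 had 33.3% and 52.2% at 6 hpf, against 50.5% and 52.6% at 4 hpf, and neither passed. In klhl35 the site at 307667 on chromosome 10 had 19.3, 22.8, 15.5 and 21.7% at 0, 2, 4 and 6 hpf. None of the 7 kelch-like sites of 6 hpf was listed at 8 hpf, a step in which 28.1% of sites of all genes were listed again.

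RING ligases gave 15 sites shared by 4 and 6 hpf, of which 7 were lower, against 34.1% of shared sites over all genes. In RNF111, known as Arkadia and active in Nodal and TGF-beta signalling, the site on chromosome 7 at 31919741 had 82.6% of 92, 79.1% of 325, 74.0% of 365, 42.6% of 148 and 15.1% of 259 reads at 0, 2, 4, 6 and 8 hpf. It was lower in both steps (exact test, adjusted p = 3.22e-10 for 6 against 4 hpf and 7.77e-09 for 8 against 6 hpf). In rnf40, a partner in the ubiquitination of histone H2B, 3 of 4 shared sites were lower. These had 46.3% at 6 hpf, against 71.0% at 4 hpf, at 30466947 on chromosome 12, then 16.7%, against 32.5%, at 30463530 (adjusted p = 0.0685 with the beta-binomial test), and 12.6%, against 18.9%, at 30475787. The last rested on 2440 and 2270 reads (exact test, adjusted p = 2.58e-08, and 0.0721 with the beta-binomial test). In the same gene the site at 30465806 had 11.3% of 532 reads at 6 hpf, against 10.5% of 591 reads at 4 hpf, a difference of 0.79 points (interval -2.86 to 4.5).

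The sites of RNF5, a ligase of the endoplasmic reticulum membrane, lie close together on chromosome 19 and changed little up to 6 hpf. The site at 977711 had 35.4, 38.0, 36.6, 34.6 and 25.6% at 0, 2, 4, 6 and 8 hpf, on 238 to 782 reads, and that at 977751 had 26.2, 29.0, 25.9, 24.7 and 21.3%, on 263 to 817 reads. At 8 against 6 hpf the site at 977711 was lower (exact test, adjusted p = 0.0328, and 0.119 with the beta-binomial test), and the other differed by -3.44 points (interval -9.3 to 2.89). At 6 against 4 hpf they differed by -1.93 (-7.13 to 3.36) and -1.22 points (-5.82 to 3.5).

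Apart from the U-box gene, TRIM ligases had the largest share of 4 hpf sites listed again at 6 hpf, with 18 of 29 (62.1%), where kelch-like genes had 55.6%, F-box genes had 29.7%, HECT genes 28.0% and E2 genes 25.0%. Without TRIM47 the share was 15 of 22 (68.2%). UBR genes had 44.4%, RING genes 41.7% and cullins 40.0%, against 40.2% over all genes. Median coverage at 4 hpf was 268 reads at TRIM sites, 298 at RING, 258 at UBR, 200 at kelch-like and 194 at F-box sites. It was 152.5 at E2, 145 at cullin and 70 at HECT sites. This order of shares and the part of coverage in it were not tested. Of the 20 TRIM sites of 6 hpf, 1 was listed at 8 hpf, against 28.1% of sites over all genes. Of the 18 shared sites 4 were lower at 6 hpf, against 34.1% of shared sites over all genes. In trim16 the site on chromosome 12 at 47753848 had 88.6% of 114, 88.3% of 300, 94.0% of 199 and 46.9% of 64 reads at 0, 2, 4 and 6 hpf (exact test, adjusted p = 2.13e-14). In trim71, the vertebrate LIN-41, an RNA-binding ligase of early embryos, the site on chromosome 16 at 8967651 had 72.5, 75.6, 76.6 and 57.5% at these stages on 160, 488, 832 and 452 reads (exact test, adjusted p = 2.88e-11). Its neighbour at 8967550 had 17.5, 14.5, 15.7 and 10.4% (exact test, adjusted p = 0.000551, and 0.155 with the beta-binomial test). Its site at 8964691 had 12.7% of 205 reads at 6 hpf, against 12.6% of 349 reads at 4 hpf, a difference of 0.08 points (interval -5.42 to 6.16).

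In trim23, a ligase that also carries an ARF-type GTPase domain, 4 sites were compared. The best covered, at 11769481 on chromosome 10, had 52.8% of 108, 48.7% of 1290, 50.7% of 2145, 47.4% of 705 and 22.9% of 105 reads at 0, 2, 4, 6 and 8 hpf. It differed by -3.3 points at 6 against 4 hpf (interval -7.53 to 0.95) and was lower at 8 than at 6 hpf (exact test, adjusted p = 6.02e-06). The site at 11806182 had 31.2% at 6 hpf, against 41.5% at 4 hpf (exact test, adjusted p = 0.0201, and 0.126 with the beta-binomial test), was missing at 8 hpf and had 15.9% of 44 reads at 10 hpf. In trim24, a chromatin reader, the site at 59467733 on chromosome 4 had 10.7% of 225 reads at 6 hpf, against 10.6% of 349 reads at 4 hpf, a difference of 0.06 points (-4.93 to 5.55). The gene listed as TRIM47 had 9 sites on chromosome 15 between 508145 and 515391, none above 31.2% at any stage, and none of its 3 shared sites passed at 6 against 4 hpf.

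**Figure D4:**
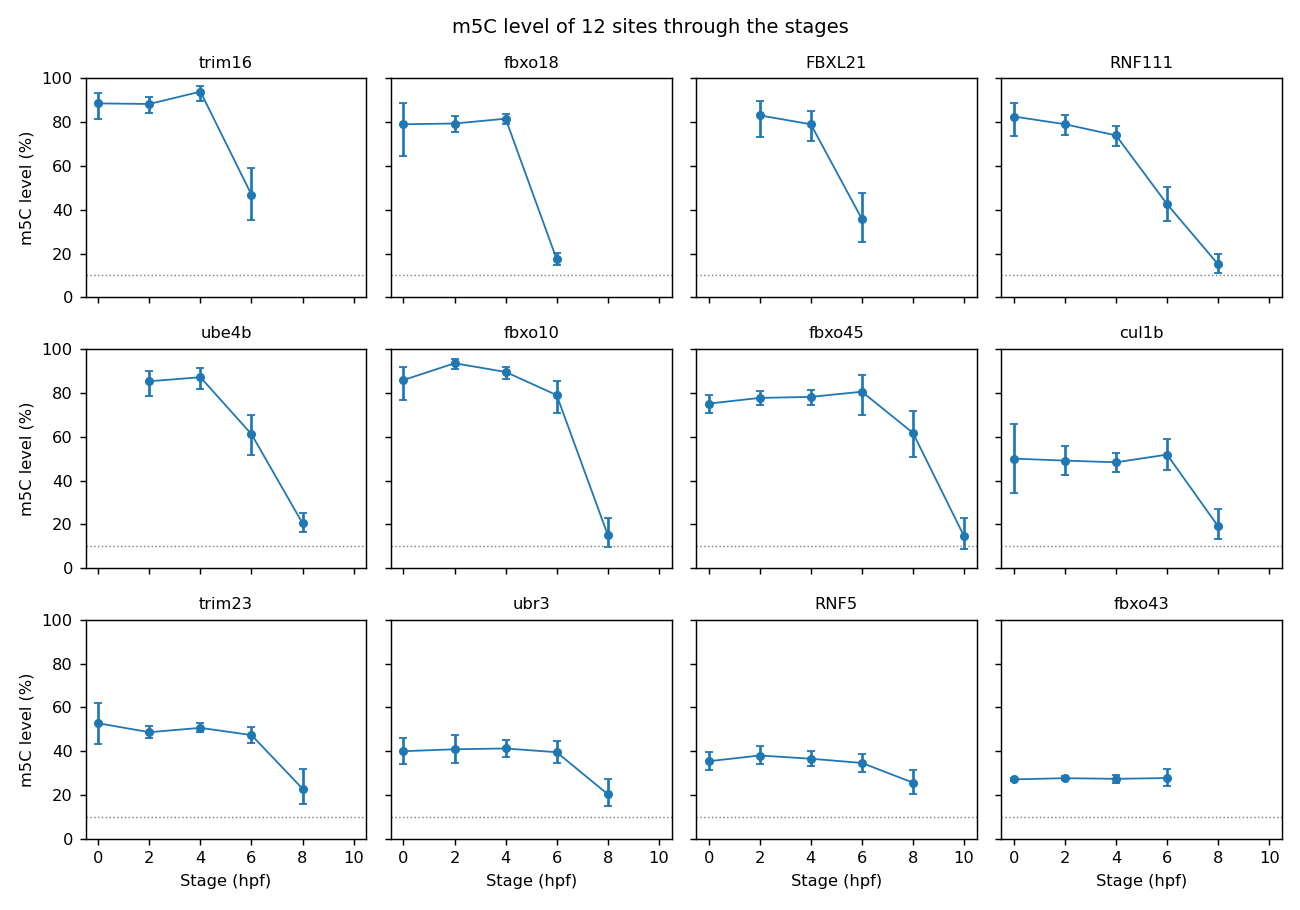
m5C level in percent (y axis) against stage in hpf (x axis) for 1 site each of 12 genes, with 95% Wilson intervals for counting error; lines join consecutive lists and the dotted line is the 10% limit. The trim16, fbxo18, FBXL21, RNF111 and ube4b sites were lower at 6 than at 4 hpf, the cul1b, ubr3, trim23 and fbxo45 sites passed the test at 8 against 6 hpf and not before, and the fbxo43 site stayed between 27.1 and 27.7%.

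Sites in every list of 0 to 6 hpf numbered 46, in 32 genes. Their medians were 30.4, 29.1, 32.5 and 19.7% at 0, 2, 4 and 6 hpf, and those of the 1715 such sites of all genes were 29.9, 29.4, 29.5 and 21.4%. The 10 sites in every list of 0 to 8 hpf, in 9 genes, had medians of 51.4, 47.0, 46.7, 41.1 and 19.7%, against 37.2, 38.7, 37.0, 32.2 and 18.2% for the 597 such sites of all genes. With 10 sites the intervals were wide, such as 26.2 to 82.6% at 0 hpf and 24.7 to 79.0% at 6 hpf. They held the median of all genes at each of these stages. In both sets the median was lowest at the last stage, and the sites were chosen for presence in these lists. At the other end, 87 of the 239 sites appeared in 1 list only. This count was not made over all genes, so it does not set the ubiquitin genes apart.

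The 69 sites of 4 hpf that were listed again at 6 hpf had a median level of 30.6% and a median coverage of 379 reads at 4 hpf. The 100 that were not had 16.6% and 118.5 reads, and 40 of them lay in genes with another site listed at 6 hpf. Over all genes the sites listed again had 27.3% and 339 reads, and the 3522 that were not had 15.8% and 103 reads. Of these 3522 sites, 975 lay in genes with another site listed at 6 hpf. The share listed again was 4.76% for 20 to 49 reads at 4 hpf, 11.1% for 50 to 99, 38.1% for 100 to 199, 61.9% for 200 to 499 and 62.2% for 500 or more, and 6.04, 15.7, 36.0, 58.2 and 68.1% over all genes. By level at 4 hpf the share was 27.8% from 10%, 37.5% from 20%, 61.1% from 30% and 68.4% from 50% upwards. Over all genes these shares were 25.4, 46.9, 60.1 and 65.4%. Presence in the 6 hpf list thus moved with coverage and with level, and the part of either in the loss of sites was not tested. Of the sites at 50% or more, 13 of 19 were listed again, but some sites of high level were not. The fbxo30b site on chromosome 23 had 70.7% of 167 reads at 4 hpf, that of fbxo22 on chromosome 7 had 43.9% of 262 and that of rnf216 on chromosome 3 had 36.4% of 176, and none of these genes had a site at 6 hpf.

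Coverage also changed unequally at the shared sites. Over all genes, the median ratio of reads at 6 hpf to reads at 4 hpf was 0.488. Among the 35 ubiquitin sites at or above this ratio the median change in level was -10.5 points and 18 (51.4%) were lower, and among the 34 below it the values were -3.41 points and 9 (26.5%). Over all genes these values were -6.27 points and 43.6% at or above, and -3.76 points and 24.6% below. The correlation of the ratio of levels (6 over 4 hpf) with the ratio of reads, given as a description, was -0.247 (Spearman, 69 sites), against -0.245 over the 2367 sites of all genes. Level and coverage come from the same reads, and transcript amounts were not measured separately. Single sites went either way. At 1.53 times the median ratio the fbxo18 site was much lower, whereas herc2 at 1.97 times differed by 7.92 points upwards and RNF5 at 977711 by -1.93 points at 1.4 times, and neither passed. Below the median ratio, RNF111 at 0.832 times and trim16 at 0.66 times were lower, whereas fbxo45 at 0.262 times and fbxo43 at 0.436 times did not pass.

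**Figure D5:**
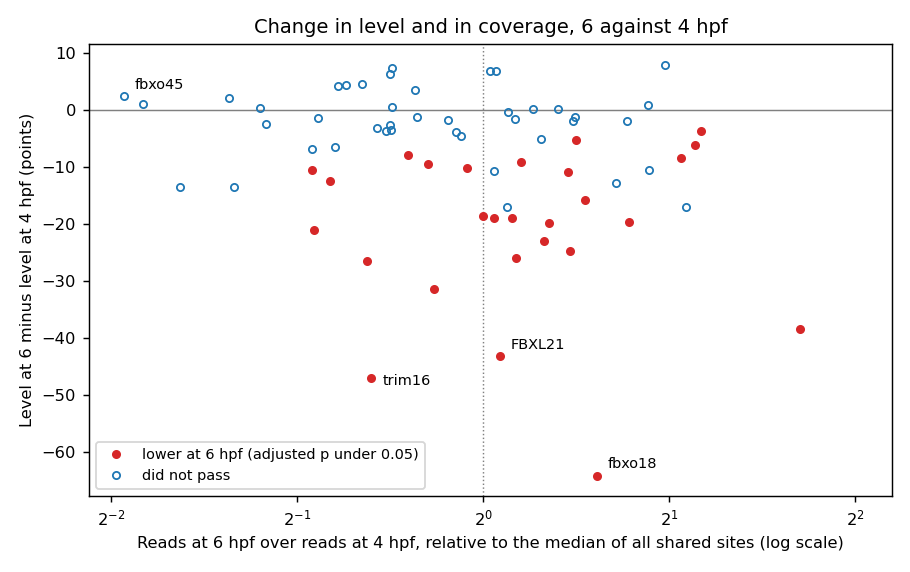
Change in m5C level at 6 minus 4 hpf in percentage points (y axis) against the ratio of reads at 6 hpf to reads at 4 hpf, divided by the median ratio of all shared sites (x axis, log scale), for 69 sites in ubiquitin conjugating and ligase genes. Filled red points were lower at 6 hpf by Fisher's exact test and open points did not pass; 18 red points lie at or right of the dotted line at the median ratio and 9 left of it.

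Before 4 hpf changes were few. At 2 against 0 hpf, 1 of 92 shared sites was lower and 0 higher, against 4.86% lower and 4.83% higher over all genes, and the beta-binomial test gave the same counts, against 1.42% lower and 1.1% higher over all genes. This was rnf150b, a membrane RING protein, whose site on chromosome 23 had 10.1% of 454 reads at 2 hpf, against 29.9% of 304 reads at 0 hpf (exact test, adjusted p = 6e-10, and 6.95e-05 with the beta-binomial test). At 4 hpf it had 20.1% of 503 reads, higher than at 2 hpf by Fisher's exact test (exact test, adjusted p = 0.000973) and not by the beta-binomial test (0.191). The median change was -0.0043 points at 2 against 0 hpf and -0.59 points at 4 against 2 hpf.

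At 4 against 2 hpf, 4 of 127 shared sites were lower and 3 higher, against 4.03% lower and 1.92% higher over all genes. Among the lower ones were rnf139, with 17.5% at 4 hpf, against 36.8% at 2 hpf, ube2i2 with 16.6%, against 21.5%, and fbxo43 at 58186627 with 10.7%, against 13.4%. Among the higher ones were ube2e3 with 38.0%, against 18.3%, and rnf150b. None of the 7 passed with the beta-binomial test, by which 0.589% of sites of all genes were lower and 0.305% higher. With it the ube2i2 and fbxo43 sites had adjusted p-values of 0.736 and 0.947. In this test added reads at deeply covered sites count for little, so a small change can fail there at any coverage. The read correlation of this test was set on this same step, taking its typical change over all genes as noise. Not passing it here is thus not separate evidence of no change.

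A few sites appeared late. The 5 sites listed for the first time at 8 hpf were in klhl12 (16.3% of 209 reads), ube2e3 (10.2% of 108), ube2r2 (10.4% of 106), fbxo7 (15.7% of 89) and klhl35 (18.9% of 37), and none was listed at 10 hpf. All but ube2r2 belong to genes with another site in an earlier list.

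Some sites lay within 10 bases of another of the same gene. There were 4 such pairs, among them those of trim16 and klhl35. Members of a pair share many of their reads and are not independent. In trim16 the pair on chromosome 12 at 47748681 and 47748687 had 24.3 and 16.8% at 4 hpf, and only the second base was listed at 6 hpf, with 12.1%. In klhl35 the adjacent bases at 307166 and 307167 had 18.5 and 11.8% at 2 hpf.

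Other genes of the pathway, from a list of 69 symbols outside the rule (E1 enzymes, cullin partners, the anaphase-promoting complex and ligases of other names), had 91 sites in 41 genes. The most were in the HECT ligases huwe1 with 16 and trip12 with 8. Of the 31 sites of these genes at 6 hpf, huwe1 held 7 and trip12 held 4. At 6 against 4 hpf, 16 of the 29 shared sites of these genes were lower and 1 higher, against 34.1% lower and 1.01% higher over all genes. The median change was -10.2 points (interval -17.6 to -4.27), and this interval holds the -4.99 points of all genes. By the beta-binomial test 12 sites were lower and 0 higher, against 24.9% lower and 0.169% higher over all genes. At 8 against 6 hpf 7 of 9 were lower, against 46.2% over all genes. By the beta-binomial test 7 were lower too, against 40.6% over all genes. The E1 gene uba1 had 1 site, listed at 4 and not at 6 hpf.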

How the data were processed

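RNA bisulfite sequencing lists of 9 stages with 2 libraries each were analysed. Per the study's methods the authors trimmed reads (cutadapt, Trimmomatic), mapped them with HISAT2 to the converted Zv9 genome and the rest to converted transcripts, filtered reads and genes that resisted conversion, called cytosines by a binomial test against gene-level conversion and combined both replicates. Reads of close gene copies can be shared through the transcript alignment. The authors deposited coverage as a read count (C and T) and the m5C level as a fraction, given here in percent. The deposited p-value per site was not used. Level times coverage was a whole number of C reads in every entry within 1e-06. No entry was below 20 reads or 10%. Positions are those of Zv9 as deposited. Sequence, motif type and genic location were not analysed here.

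Members and lists were chosen with earlier results of these data known. Stages were taken from the titles. C and T reads of sites shared by consecutive stages were compared with Fisher's exact test (scipy 1.17.1), Benjamini-Hochberg adjusted over all shared sites, threshold 0.05. The alternatives were a beta-binomial z test (read correlation 0.00232, set on 2 and 4 hpf), limits of 50 or 100 reads, of 20% or of 5 C reads, a coverage-weighted mean, matching by gene, reads summed per gene, leaving out kelch-like genes and, added after seeing the data, leaving out the 4 renamed genes. Intervals are Wilson intervals for single levels and shares, Newcombe intervals for differences and order-statistic intervals for medians.

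Named were the genes with most sites per family, the largest called changes of each step with at least 50 reads, sites in the most lists, those first listed at 8 or 10 hpf, the highest levels at 4 hpf, pairs within 10 nt and the least changed sites of 4 to 6 hpf. Other genes were named after their values were seen, and some that the rule selects are not reported here. In simulated data of the 2367 sites of 4 and 6 hpf, 200 of them lowered, Fisher's exact test recovered 48.5% of falls of 10 points and 85.0% of falls of 20 points, with 8 and 9 false calls. With a read correlation of 0.0025 it made 105 and 122 false calls and the beta-binomial test 1 and 11, recovering 13.0% and 64.0%. In the simulation the read correlation was fitted on the sites known to be unchanged, and sites that fell under 10% were kept. Neither holds for the data, so these figures do not give the error rates of the tests as used.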

Additional observations from a re-analysis of the deposited data

How the results depend on the processing

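Of the values for stages and steps recomputed under each alternative, 172 stayed close and 38 moved. Counts were scored as close up to a set ratio, and other values as close inside the interval reported for them. Reversal could be scored only for the median changes at 6 against 4 and 8 against 6 hpf, and none was seen. With at least 100 reads there were 69, 105, 48, 13 and 0 sites at 0, 2, 6, 8 and 10 hpf, the share listed again was 84.8% from 2 to 4 hpf and 0% from 8 to 10 hpf, and 0 sites were lower at 10 hpf. With at least 50 reads 1 site was left at 10 hpf. With a level of at least 0.2 there were 59, 83, 79, 34, 6 and 0 sites at 0 to 10 hpf and the medians were 35.4, 33.7, 36.4, 28.8 and 22.1% at 0 to 8 hpf. Under the same limit the median change was -10.6 points at 6 against 4 hpf, the shares listed again were 81.4% from 0 to 2, 69.9% from 2 to 4 and 0% from 8 to 10 hpf, and the sites called lower numbered 0, 0, 13, 5 and 0 in the 5 steps, with 1 higher at 4 against 2 hpf. Here fewer sites entered each comparison, and the shares called over all genes under these limits were not computed. The mean weighted by coverage was 24.1% at 2 hpf and 25.5% at 4 hpf. Matched by gene, 83.9% were listed again from 2 to 4, 49.5% from 4 to 6 and 35.4% from 6 to 8 hpf, since any site of the gene counted. With reads summed per gene, 3 genes were higher at 2 than at 0 hpf. The share over all genes was not computed for this, and the cause was not tested. The beta-binomial test gave 0 lower and 0 higher at 4 against 2 hpf, the step on which its read correlation was set. Over all steps 28 of the 45 calls made by Fisher's exact test passed it and 17 did not. Without the 4 renamed genes, 25 sites were lower at 6 against 4 hpf and 8 at 8 against 6 hpf. Over all genes 34.1% and 46.2% of shared sites were lower in these steps.

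No paired analysis was possible because each list combines both replicates of its stage, and leaving out a replicate could not be run for the same reason. Sites under 20 reads or under 10% are not in the lists, so a loss of coverage and a loss of methylation cannot be told apart for a missing site, and counts of falls hold only sites that stayed above both limits. At the median coverage of 104.5 reads at 8 hpf single levels carry wide counting intervals, and variation between embryo pools is not covered by any interval given.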
